A study of Mus musculus with 32 samples.

Results

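A set of 10 genes kept silent by promoter DNA methylation in most somatic cells were followed through mouse 1-cell and 2-cell embryos with and without DPPA2 or DPPA4: Sycp1, Sycp3, Syce1, Hormad1, Mael, Asz1, Tdrd1, Stk31, Tex101 and Trap1a. They were taken by name, as a class linked to these proteins in stem cells, and all 10 were found among the 46078 genes of each table. The choice was made with earlier results of these data known, so member counts beside shares of all genes are a description. All 10 also passed the filter of at least 1 FPKM (fragments per kilobase of transcript, scaled to the mapped reads of the library) in at least 2 libraries, among 15068 genes tested in total RNA and 18506 in polyA RNA. The embryos were at the late 1-cell stage, 12 hours after fertilization, or the late 2-cell stage, 28 hours after it, on either side of the main onset of embryonic transcription. The question addressed was whether loss of Dppa2 or Dppa4 alters the transcriptome at this onset.

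In the genotype names, m stands for the maternal contribution and z for the embryo's own gene. Embryos written m-z+ came from eggs without the gene but carried a working copy of their own, m-z- embryos had neither, and m+z+ embryos were the controls. Total RNA came from 8 groups of 2 libraries: Dppa2 m-z+ and Dppa2 m+z+ embryos, both of a mixed B6/DBA background, and Dppa4 m-z+ and Dppa4 m+z+ embryos, both B6, each at the 2-cell and the 1-cell stage. PolyA RNA came from single embryos in 6 groups: 3 libraries each of 2-cell Dppa2 m-z-, Dppa2 m-z+ (both B6/DBA), Dppa4 m-z- and Dppa4 m-z+ (both B6) embryos, and 2 libraries each of 2-cell and 1-cell WT embryos (B6). The labels do not say how the mutant alleles or maternal deletions were made, how many embryos went into a total RNA library, or whether replicates came from separate litters. P-values therefore reflect differences among libraries, part of which may be technical.

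The embryos' identity and the mutations were checked first. The summed FPKM of 6 genes of the 2-cell stage, among them Zscan4c and Zfp352, lay between 178 and 259 in 2-cell and between 3.81 and 11.9 in 1-cell total RNA libraries, and between 480.2 and 1178 in 2-cell and 8.98 and 16.2 in 1-cell polyA libraries. The maternal loss was visible at the 1-cell stage: Dppa2 had 9.38 and 9.52 FPKM in Dppa2 m-z+ embryos, against 32.3 and 32.7 FPKM in m+z+ embryos, and Dppa4 had 1.13 and 0 FPKM in Dppa4 m-z+ embryos, against 4.37 and 6.92 FPKM in m+z+ controls. The fall of Dppa2 passed (log2 difference -1.68 ± 0.16, adjusted p = 0.000701), while that of Dppa4 did not (-2.16 ± 0.39, adjusted p = 0.369), so in that comparison the test over all genes also missed the targeted gene. At the 2-cell stage the total RNA groups overlapped: Dppa2 had 44.8 and 59.2 FPKM in Dppa2 m-z+, against 49.7 and 53.0 FPKM in m+z+ embryos, and Dppa4 had 25.5 and 20.3 FPKM in Dppa4 m-z+, against 30.1 and 17.6 FPKM in m+z+ controls. Dppa4 was listed at 0, 0 and 0.149 FPKM in Dppa4 m-z- polyA libraries, against 155, 152 and 125 FPKM in m-z+ libraries. Dppa2 went against its label, with 155, 130.2 and 76.5 FPKM in libraries labelled Dppa2 m-z- and 92.4, 87.4 and 63.3 FPKM in Dppa2 m-z+ libraries, and these are called libraries labelled Dppa2 m-z- throughout. The deleted part of either gene is not given in the labels, so reads outside it could remain. Summed FPKM was 0.289 to 18.7 for 8 sperm markers and 4.60 to 49.8 for 8 cumulus and granulosa markers, and between 1 and 5 of the 8 genes of a list were at 0 in every library of a stage and table. Tnp2 and Foxl2 were among those at 0 except in 2-cell total RNA, and Smcp except in 1-cell polyA RNA. Prm2, a sperm protamine, had 8.19 ± 2.20 FPKM (SD, n = 2) in Dppa2 m-z+ and 11.2 ± 3.67 FPKM in Dppa2 m+z+ 1-cell total RNA.

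Many germline genes of this class have promoters rich in CpG that escape methylation in germ cells and are methylated around implantation. In somatic and embryonic stem cells several genes are held down by DNMT1, by the E2F6 and MGA-MAX repressor complexes and by histone methyltransferases. Most of their products are known from germ cells: some build the meiotic chromosome axis and the synaptonemal complex, which zips homologous chromosomes together, and others act in nuage, the perinuclear granules where PIWI-interacting RNAs (piRNAs) that silence transposons are made. DPPA2 and DPPA4 form a pair of chromatin proteins with SAP domains that, in mouse embryonic stem cells, keep a set of promoters free of DNA methylation. In the embryo, transcripts of such genes can be stored in the egg, transcribed anew, or both.

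The promoters were set beside the expression data as a description, and a link between their sequence and the stage change was not tested. A RefSeq promoter window (GRCm38.p6, 250 bases before to 50 bases after the start site) was found for all 10 genes, and 5 are shown 5′ to 3′ on the gene's strand: Hormad1 and Sycp3, which rose, Mael, whose change was small, Asz1, which fell, and Trap1a, which rose and had the fewest CpG. Capitals mark CACGTG, the E-box that MAX dimers can bind and that reads the same on both strands, and GCGGGA, the core of many E2F sites, or its reverse complement TCCCGC.
Hormad1 (chr3:95559427-95559726, plus strand): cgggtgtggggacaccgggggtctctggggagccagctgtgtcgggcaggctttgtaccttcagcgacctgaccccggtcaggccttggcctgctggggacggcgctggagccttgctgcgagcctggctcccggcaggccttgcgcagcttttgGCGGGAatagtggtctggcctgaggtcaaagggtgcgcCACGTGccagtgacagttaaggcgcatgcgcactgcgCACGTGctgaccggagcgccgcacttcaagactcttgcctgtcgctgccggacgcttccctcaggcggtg
Sycp3 (chr10:88459337-88459636, plus strand): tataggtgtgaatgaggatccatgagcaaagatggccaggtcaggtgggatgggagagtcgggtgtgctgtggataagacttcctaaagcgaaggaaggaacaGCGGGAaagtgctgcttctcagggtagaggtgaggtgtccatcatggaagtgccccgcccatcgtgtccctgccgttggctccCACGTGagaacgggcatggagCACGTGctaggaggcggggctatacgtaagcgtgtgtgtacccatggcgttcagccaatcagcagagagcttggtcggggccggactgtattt
Mael (chr1:166238695-166238994, minus strand): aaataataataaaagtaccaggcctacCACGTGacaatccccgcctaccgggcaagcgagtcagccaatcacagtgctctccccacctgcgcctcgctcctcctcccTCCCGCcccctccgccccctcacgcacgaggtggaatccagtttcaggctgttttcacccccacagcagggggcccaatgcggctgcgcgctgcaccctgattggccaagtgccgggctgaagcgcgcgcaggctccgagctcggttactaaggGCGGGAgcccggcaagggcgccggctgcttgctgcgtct
Asz1 (chr6:18109012-18109311, minus strand): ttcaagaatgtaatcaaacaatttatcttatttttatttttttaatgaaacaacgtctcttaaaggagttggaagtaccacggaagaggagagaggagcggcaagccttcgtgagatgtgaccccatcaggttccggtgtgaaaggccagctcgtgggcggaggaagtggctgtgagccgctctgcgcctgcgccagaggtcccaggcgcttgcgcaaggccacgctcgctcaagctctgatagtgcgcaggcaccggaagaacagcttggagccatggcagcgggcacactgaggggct
Trap1a (chrX:139333433-139333732, plus strand): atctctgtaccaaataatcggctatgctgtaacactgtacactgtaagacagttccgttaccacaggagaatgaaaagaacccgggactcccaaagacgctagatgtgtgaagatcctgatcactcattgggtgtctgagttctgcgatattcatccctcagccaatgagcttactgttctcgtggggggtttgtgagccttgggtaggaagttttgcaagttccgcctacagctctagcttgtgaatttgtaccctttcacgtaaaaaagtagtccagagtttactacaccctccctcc

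In the first RefSeq window of each gene, CACGTG was present in 6 of 10 members (Hormad1, Sycp1, Sycp3, Mael, Stk31 and Tdrd1), against 7.15% of all 32851 mouse promoter windows of the same length. GCGGGA on either strand was present in 4 (Hormad1, Sycp1, Sycp3 and Mael), against 20.0% of all windows, and the same 4 held both, against 1.99%. No match of one motif overlapped one of the other. The windows of Syce1, Asz1, Tex101 and Trap1a held neither. The median number of CpG was 19.5 in the members' windows and 7 in all windows, with 29 in Stk31, 24 in Hormad1 and Mael, 17 in Asz1 and 8 in Trap1a. The windows are a description of letters near an annotated start, and the RefSeq start of Tex101 lies 4625 bases from the GENCODE start of the gene, so its window may not be the promoter used here.

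From the 1-cell to the 2-cell stage some members rose and others fell, in each of the 5 genotypes measured at both stages. Sycp1, Sycp3 and Hormad1, which encode meiotic chromosome proteins, rose together with Tex101 and Trap1a, while the nuage genes Asz1 and Tdrd1 fell, and so did Stk31 in total RNA. Mael passed in 1 comparison, with a small fall, and Syce1 in none. In limma fits over all genes, 5 of 10 members rose in each genotype, while 4 fell in Dppa2 m-z+, 3 in Dppa2 m+z+, 3 in Dppa4 m-z+ and 3 in Dppa4 m+z+ total RNA, and 2 in WT polyA RNA. Stage change was common among all genes. In Dppa2 m-z+ embryos 28.8% of tested genes rose and 28.4% fell, and in Dppa2 m+z+ embryos 31.7% and 29.9%. In Dppa4 m-z+ embryos the shares were 25.3% and 25%, in Dppa4 m+z+ embryos 24.9% and 24.2%, and in WT polyA RNA 17.4% and 8.42%. With TPM scaling, which gives every library the same total, the median log2 change of all genes in Dppa2 m+z+ embryos was -0.30 instead of 0.06, and 3750 genes rose and 5802 fell instead of 4783 and 4498.

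The median log2 change of the members was 0.89 in Dppa2 m-z+, 1.27 in Dppa2 m+z+, 0.77 in Dppa4 m-z+, 0.72 in Dppa4 m+z+ and 1.23 in WT embryos, beside 0.02, 0.06, 0.03, 0.04 and 0.23 over all genes tested. Since 5 of the 10 members rose in each genotype, this median falls in the gap between those members and the others. It describes no single member and no rise of the set as a whole. Oocyte RNAs fell at the same time: the summed FPKM of 6 oocyte genes lay between 465 and 1189.9 in 2-cell and between 1788 and 2461 in 1-cell total RNA, and between 1765 and 5135 in 2-cell and 6181 and 7011 in 1-cell polyA RNA. The 1-cell polyA libraries were all WT, while the 2-cell polyA range pools WT with mutant groups of both backgrounds. In WT 2-cell polyA libraries alone the sum was 2983 to 3357. Of the sperm markers, of which 2 were tested in total RNA, Prm2 fell in all 4 genotypes there. Of the 3 cumulus and granulosa markers tested, Amhr2 and Tnfaip6 rose and Cyp19a1 fell in all 5 genotypes, and Tnfaip6 had 16.6 ± 8.33 FPKM in 2-cell and 0.0939 ± 0.133 FPKM in 1-cell WT polyA RNA (SD, n = 2 each). The part of these markers in the members' stage changes was not tested. FPKM measures a relative amount, so a loss of other RNAs and a gain of a gene's own cannot be told apart, nor can fewer cells with a transcript and less of it per cell.

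**Figure D1:**
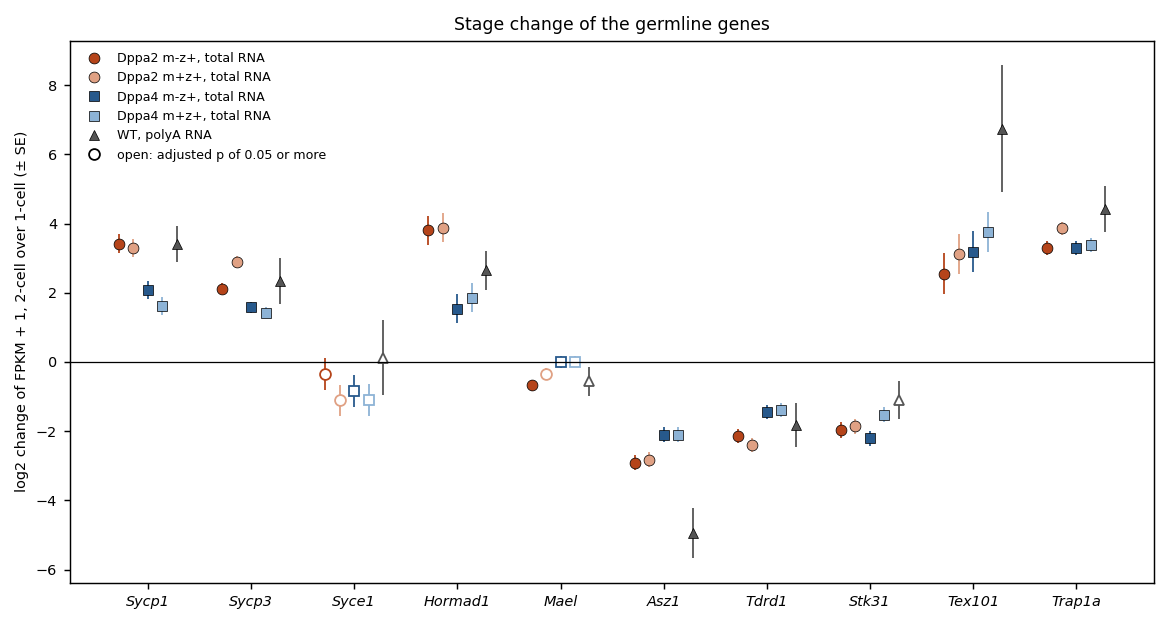
Log2 change of FPKM + 1 at the 2-cell over the 1-cell stage (vertical axis, with limma standard errors) for each member in 4 genotypes of total RNA (2 libraries per stage) and in WT polyA RNA (2 libraries per stage). Sycp1, Sycp3, Hormad1, Tex101 and Trap1a lie above 0 in all 5 series, Asz1, Tdrd1 and Stk31 lie below 0, and open symbols did not pass an adjusted p of 0.05.

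Sycp1 encodes the transverse filament that spans the synaptonemal complex (mm10, GENCODE M21, chromosome 3, 102818499 to 102936100, minus strand). In the Dppa2 arm it had 65.9 and 113 FPKM in m-z+ and 83.9 and 77.5 FPKM in m+z+ 2-cell embryos, against 8.20 and 6.25 FPKM in m-z+ and 8.08 and 6.601 FPKM in m+z+ 1-cell embryos. Dppa4-arm libraries had 35.0 and 48.1 FPKM in m-z+ and 41.2 and 29.3 FPKM in m+z+ 2-cell embryos, against 9.76 and 8.25 FPKM in m-z+ and 9.61 and 11.9 FPKM in m+z+ 1-cell embryos. Every 2-cell library lay above every 1-cell library. On the log2 scale it rose by 3.42 ± 0.27 (SE; adjusted p = 4.44e-07) in Dppa2 m-z+, 3.30 ± 0.27 (5.86e-07) in Dppa2 m+z+, 2.08 ± 0.27 (3.77e-05) in Dppa4 m-z+ and 1.61 ± 0.27 (0.000301) in Dppa4 m+z+ embryos. In polyA RNA from WT embryos Sycp1 had 159 and 199 FPKM in 2-cell and 19.7 and 12.8 FPKM in 1-cell embryos, a log2 change of 3.41 ± 0.51 (adjusted p = 7.94e-05).

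Sycp3 encodes a protein of the lateral axes of meiotic chromosomes (chromosome 10, 88459569 to 88473236, plus strand). It had 81.7 and 72.3 FPKM in Dppa2 m-z+ and 115 and 104 FPKM in Dppa2 m+z+ 2-cell embryos, against 16.1 and 17.8 FPKM in m-z+ and 15.3 and 12.4 FPKM in m+z+ 1-cell embryos. Dppa4-arm libraries had 81.7 and 73.0 FPKM in m-z+ and 58.3 and 61.9 FPKM in m+z+ 2-cell embryos, against 24.2 and 26.3 FPKM in m-z+ and 23.4 and 20.3 FPKM in m+z+ 1-cell embryos. All stages separated without overlap, with log2 changes of 2.12 in Dppa2 m-z+, 2.90 in Dppa2 m+z+, 1.58 in Dppa4 m-z+ and 1.42 in Dppa4 m+z+ embryos (SE 0.15 each, largest adjusted p = 1.05e-05). In polyA RNA Sycp3 was the highest member, at 565 and 940.5 FPKM in 2-cell and 128 and 162 FPKM in 1-cell WT embryos (log2 change 2.33 ± 0.67, adjusted p = 0.0159). That call was lost without WT 1-cell replicate 1 (adjusted p = 0.101), WT 1-cell replicate 2 (0.0572) or WT 2-cell replicate 2 (0.12). The polyA libraries do not mark strand, and 660 of the 1264 exonic bases of Sycp3 (52.2%) are shared with Chpt1 on the opposite strand, which had 81.0 and 38.5 FPKM in 2-cell and 4.85 and 3.45 FPKM in 1-cell WT polyA libraries, so the polyA value of Sycp3 is uncertain. In total RNA Chpt1 lay between 0.317 and 7.26 FPKM.

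Hormad1 encodes a HORMA-domain protein of unsynapsed chromosome axes (chromosome 3, 95559677 to 95587671, plus strand). It was nearly absent from Dppa2-arm 1-cell embryos and present at low level in the Dppa4 arm. In the Dppa2 arm its FPKM was 19.7 and 41.2 in m-z+ and 20.9 and 24.3 in m+z+ 2-cell embryos, against 0.887 and 1.37 in m-z+ and 0.827 and 0.396 in m+z+ 1-cell embryos. In the Dppa4 arm it was 12.5 and 19.4 in m-z+ and 24.5 and 12.4 in m+z+ 2-cell embryos, against 6.64 and 3.29 in m-z+ and 5.56 and 3.01 in m+z+ 1-cell embryos. The stage groups did not overlap in either arm, and the log2 changes were 3.81 in Dppa2 m-z+ (adjusted p = 7.89e-06), 3.88 in Dppa2 m+z+ (6.16e-06), 1.54 in Dppa4 m-z+ (0.00878) and 1.85 in Dppa4 m+z+ embryos (0.00293, SE 0.42 each). The call in Dppa4 m-z+ embryos was lost without 1-cell replicate 2 (adjusted p = 0.0982) or 2-cell replicate 2 (0.0795). PolyA RNA from WT embryos held Hormad1 at 114 and 97.8 FPKM in 2-cell and 10.2 and 25.1 FPKM in 1-cell embryos (log2 change 2.64 ± 0.57, adjusted p = 0.00233, and 0.0544 without WT 1-cell replicate 1).

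Syce1, a central element protein of the same complex (chromosome 7, 140777229 to 140787852, minus strand), did not move with the other meiotic members. In total RNA it lay between 0 and 2.69 FPKM (median 1.33) in 8 2-cell libraries and between 2.21 and 3.81 FPKM (median 3.07) in 8 1-cell libraries. Its log2 change was -0.34, -1.11, -0.84 and -1.09 in Dppa2 m-z+, Dppa2 m+z+, Dppa4 m-z+ and Dppa4 m+z+ embryos (SE 0.46 each), and the adjusted p was 0.547, 0.0502, 0.147 and 0.065. Without Dppa2 m+z+ 2-cell replicate 1, which left the replicate listed at 0, the change in Dppa2 m+z+ embryos was -2.02 and passed (adjusted p = 0.000571). It also passed in limma there with a pseudocount of 0.1 (adjusted p = 0.0456), TPM scaling (0.0142), median-ratio scaling (0.0455) or the replicate block (0.0402). In Dppa4 embryos it passed in m+z+ with TPM scaling (0.027), and in m-z+ (0.0205) and m+z+ (0.0272) when only the groups compared were fitted. In WT polyA RNA it had 5.70 and 1.74 FPKM in 2-cell and 3.46 and 2.45 FPKM in 1-cell embryos.

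**Figure D2:**
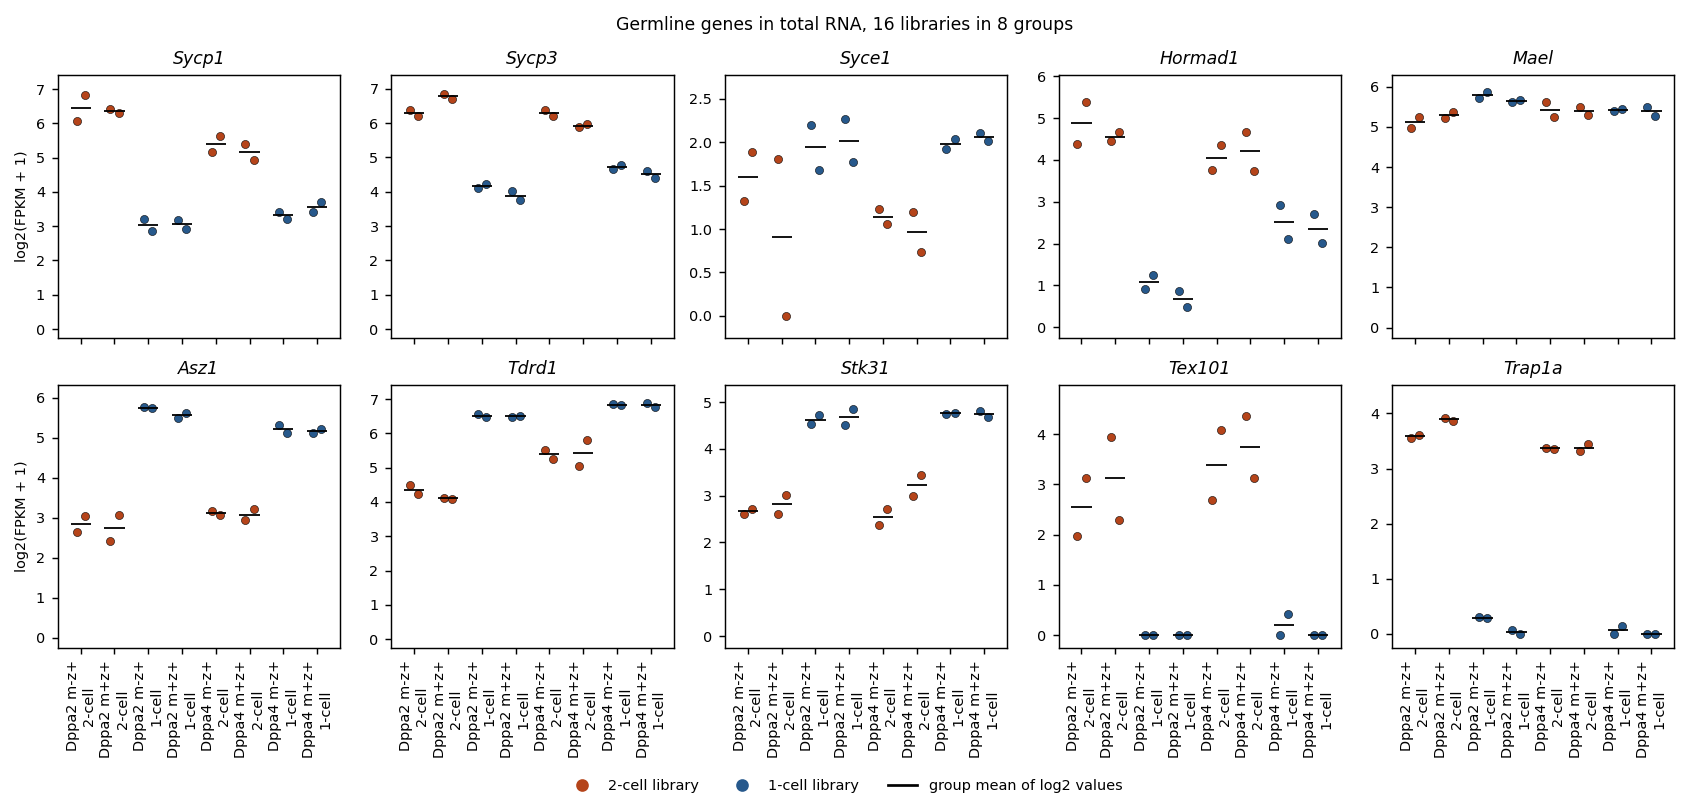
Log2(FPKM + 1) of each member in the 16 total RNA libraries (points, 2 per group; bars are group means of the log2 values), with 2-cell groups left of 1-cell groups in each arm. Sycp1, Sycp3, Hormad1, Tex101 and Trap1a are higher in every 2-cell library, while Asz1, Tdrd1 and Stk31 are lower. How far the m-z+ and m+z+ points of a stage lie apart differs by member, with a wide spread for Tex101.

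Asz1 encodes an ankyrin-repeat and SAM-domain protein that holds piRNA factors at mitochondria (chromosome 6, 18050964 to 18109061, minus strand). It had 5.19 and 7.23 FPKM in Dppa2 m-z+ and 4.34 and 7.33 FPKM in Dppa2 m+z+ 2-cell embryos, against 53.1 and 52.1 FPKM in m-z+ and 44.1 and 48.3 FPKM in m+z+ 1-cell embryos. Dppa4-arm libraries had 7.96 and 7.40 FPKM in m-z+ and 6.65 and 8.24 FPKM in m+z+ 2-cell embryos, against 38.6 and 33.9 FPKM in m-z+ and 33.8 and 36.4 FPKM in m+z+ 1-cell embryos. All 2-cell libraries were below all 1-cell libraries, and the log2 changes were -2.91, -2.82, -2.10 and -2.10 in Dppa2 m-z+, Dppa2 m+z+, Dppa4 m-z+ and Dppa4 m+z+ embryos (SE 0.22 each, largest adjusted p = 8.19e-06). In the WT polyA libraries Asz1 had 8.19 and 0 FPKM in 2-cell and 106 and 80.9 FPKM in 1-cell embryos (log2 change -4.95 ± 0.72, adjusted p = 5.7e-05). That change did not pass when the WT libraries were fitted alone (adjusted p = 0.076).

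Tdrd1 encodes a multi-Tudor protein that binds methylated PIWI proteins in nuage (chromosome 19, 56826209 to 56870012, plus strand). It was the highest member in 1-cell total RNA, with 92.8 and 87.4 FPKM in Dppa2 m-z+, 88.7 and 90.4 FPKM in Dppa2 m+z+, 115 and 112 FPKM in Dppa4 m-z+, while the Dppa4 m+z+ libraries held 117 and 109 FPKM. At the 2-cell stage it had 21.3 and 17.9 FPKM in Dppa2 m-z+, 16.3 and 16.03 FPKM in Dppa2 m+z+, 44.8 and 37.3 FPKM in Dppa4 m-z+, while the Dppa4 m+z+ libraries held 32.3 and 55.2 FPKM. Tdrd1 thus fell in all 4 genotypes, by log2 changes of -2.15, -2.40, -1.45 and -1.40 in the same order (SE 0.20 each, largest adjusted p = 0.000112). In the WT polyA libraries it had 4.09 and 5.34 FPKM in 2-cell and 15.1 and 24.0 FPKM in 1-cell embryos, a log2 change of -1.82 ± 0.63 (adjusted p = 0.0407). That call was lost without any 1 of the 4 WT libraries (adjusted p = 0.0877 and 0.245 without 1-cell replicates 1 and 2, 0.169 and 0.0961 without 2-cell replicates 1 and 2).

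Stk31, a Tudor-domain kinase of germ cells (chromosome 6, 49395604 to 49469501, plus strand), lay between 4.22 and 9.93 FPKM in 2-cell and between 21.8 and 27.9 FPKM in 1-cell total RNA. It fell in each genotype, with log2 changes of -1.97, -1.86, -2.21 and -1.52 in Dppa2 m-z+, Dppa2 m+z+, Dppa4 m-z+ and Dppa4 m+z+ embryos (SE 0.22 each, largest adjusted p = 0.000117). In WT polyA RNA it had 20.8 and 24.9 FPKM in 2-cell and 47.6 and 52.2 FPKM in 1-cell embryos, without overlap, but its log2 change of -1.10 ± 0.54 did not pass (adjusted p = 0.153). It passed with median-ratio scaling (0.0473) and when the WT libraries were fitted alone (0.0285). Mael, an HMG-box protein of nuage needed for transposon silencing in the testis (chromosome 1, 166201201 to 166238747, minus strand), had the smallest stage change of the 10 in total RNA of Dppa2 m+z+, Dppa4 m-z+ and Dppa4 m+z+ embryos, while in Dppa2 m-z+ embryos and in WT polyA RNA the Syce1 estimate was smaller. It lay between 30.6 and 47.9 FPKM (median 37.7) in 2-cell and between 37.5 and 57.1 FPKM (median 46.5) in 1-cell total RNA. Mael fell in Dppa2 m-z+ embryos, where 30.6 and 36.8 FPKM at the 2-cell stage stood against 51.8 and 57.1 FPKM at the 1-cell stage (log2 change -0.68 ± 0.17, adjusted p = 0.00372). Its change in Dppa2 m+z+ embryos was -0.35 ± 0.17 (adjusted p = 0.0849), which passed with TPM scaling (-0.81, adjusted p = 0.000611), and the difference between these changes, -0.33 ± 0.24, did not pass (adjusted p = 0.755).

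Tex101, a glycoprotein on the surface of germ cells (chromosome 7, 24668007 to 24676675, minus strand), was listed at 0 in 7 of 8 1-cell total RNA libraries and at 0.332 FPKM in the other, a Dppa4 m-z+ library. At the 2-cell stage it had 2.94 and 7.76 FPKM in Dppa2 m-z+, 14.4 and 3.90 FPKM in Dppa2 m+z+, 5.46 and 16.03 FPKM in Dppa4 m-z+, while the Dppa4 m+z+ libraries held 19.7 and 7.77 FPKM. It was present in every 2-cell total RNA library and rose in all 4 genotypes (adjusted p = 0.00234, 0.000526, 0.000624 and 0.000194 in that order). Its SE of 0.59 was the largest of the 10 members in total RNA. In WT polyA RNA it had 56.9 and 195 FPKM in 2-cell embryos and was listed at 0 in both 1-cell embryos (adjusted p = 0.0114). Without WT 1-cell replicate 1 or 2, or WT 2-cell replicate 2, the adjusted p was 0.075, 0.072 or 0.09.

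Trap1a, an X-linked gene for a tumour rejection antigen (chromosome X, 139333683 to 139338169, plus strand), was also at or near 0 at the 1-cell stage, and its 2-cell replicates lay closer together. It had 10.8 and 11.2 FPKM in Dppa2 m-z+, 14.2 and 13.5 FPKM in Dppa2 m+z+, 9.37 and 9.22 FPKM in Dppa4 m-z+, while the Dppa4 m+z+ 2-cell libraries held 8.96 and 9.89 FPKM. The 8 1-cell total RNA libraries lay between 0 and 0.236 FPKM, and 4 were listed at 0. On the log2(FPKM + 1) scale, which understates changes from low levels, Trap1a rose by 3.29 in Dppa2 m-z+, 3.86 in Dppa2 m+z+ and 3.29 in Dppa4 m-z+ embryos (SE 0.20 each, largest adjusted p = 8.79e-08), and it rose in Dppa4 m+z+ embryos against a group listed at 0 (adjusted p = 8.26e-08). In polyA RNA from WT embryos Trap1a had 17.0 and 56.2 FPKM in 2-cell and 0.655 and 0.361 FPKM in 1-cell embryos (log2 change 4.42 ± 0.65, adjusted p = 7.1e-05). Trap1a lies in the locus of the annotated gene Platr21, with 0 shared exonic bases, and Platr21 reached at most 0.695 FPKM in any library.

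The order of the members by level, in FPKM and therefore per length, turned over between the stages. The median over 8 1-cell total RNA libraries ran from Tdrd1 (100.9 FPKM) through Mael (46.5), Asz1 (41.4), Stk31 (25.7), Sycp3 (19.08), Sycp1 (8.23), Syce1 (3.07) and Hormad1 (2.19) to Trap1a (0.0262) and Tex101 (0). The ranges of the neighbours Mael and Asz1, Stk31 and Sycp3, Syce1 and Hormad1, and Trap1a and Tex101 overlapped at this stage. At the 2-cell stage the median ran from Sycp3 (77.4 FPKM) through Sycp1 (57.0), Mael (37.7), Tdrd1 (26.8), Hormad1 (20.3), Trap1a (10.3), Tex101 (7.76), Asz1 (7.28) and Stk31 (5.58) to Syce1 (1.33). There every pair of neighbours overlapped in range except Stk31 and Syce1. This order pools 4 genotypes and differed between them: mean FPKM was 89.2 for Sycp1, 77.0 for Sycp3, 33.7 for Mael and 19.6 for Tdrd1 in Dppa2 m-z+, and 60.1 for Sycp3, 43.8 for Tdrd1, 41.3 for Mael and 35.3 for Sycp1 in Dppa4 m+z+ embryos. Among 14 2-cell polyA libraries the medians were 710.0 FPKM for Sycp3, 200.02 for Sycp1, 117 for Hormad1, 89.2 for Tex101, 82.2 for Mael, 55.2 for Trap1a, 26.9 for Stk31, 10.6 for Asz1, 6.08 for Syce1 and 4.76 for Tdrd1. By these pooled medians Tdrd1 stood last in 2-cell polyA RNA and first in 1-cell total RNA. The 2-cell polyA order also differed between genotypes. By group mean, Syce1 (3.72 FPKM) and Asz1 (4.09) lay below Tdrd1 (4.71) in WT embryos. Syce1 (3.26 FPKM) also lay below Tdrd1 (5.51) in Dppa4 m-z+ embryos, while Tdrd1 was lowest in the other 2-cell polyA groups. In 1-cell total RNA Tdrd1 also exceeded its 15.1 and 24.0 FPKM in 1-cell WT polyA libraries, but values of the separately normalized tables were not compared by a test.

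**Figure D3:**
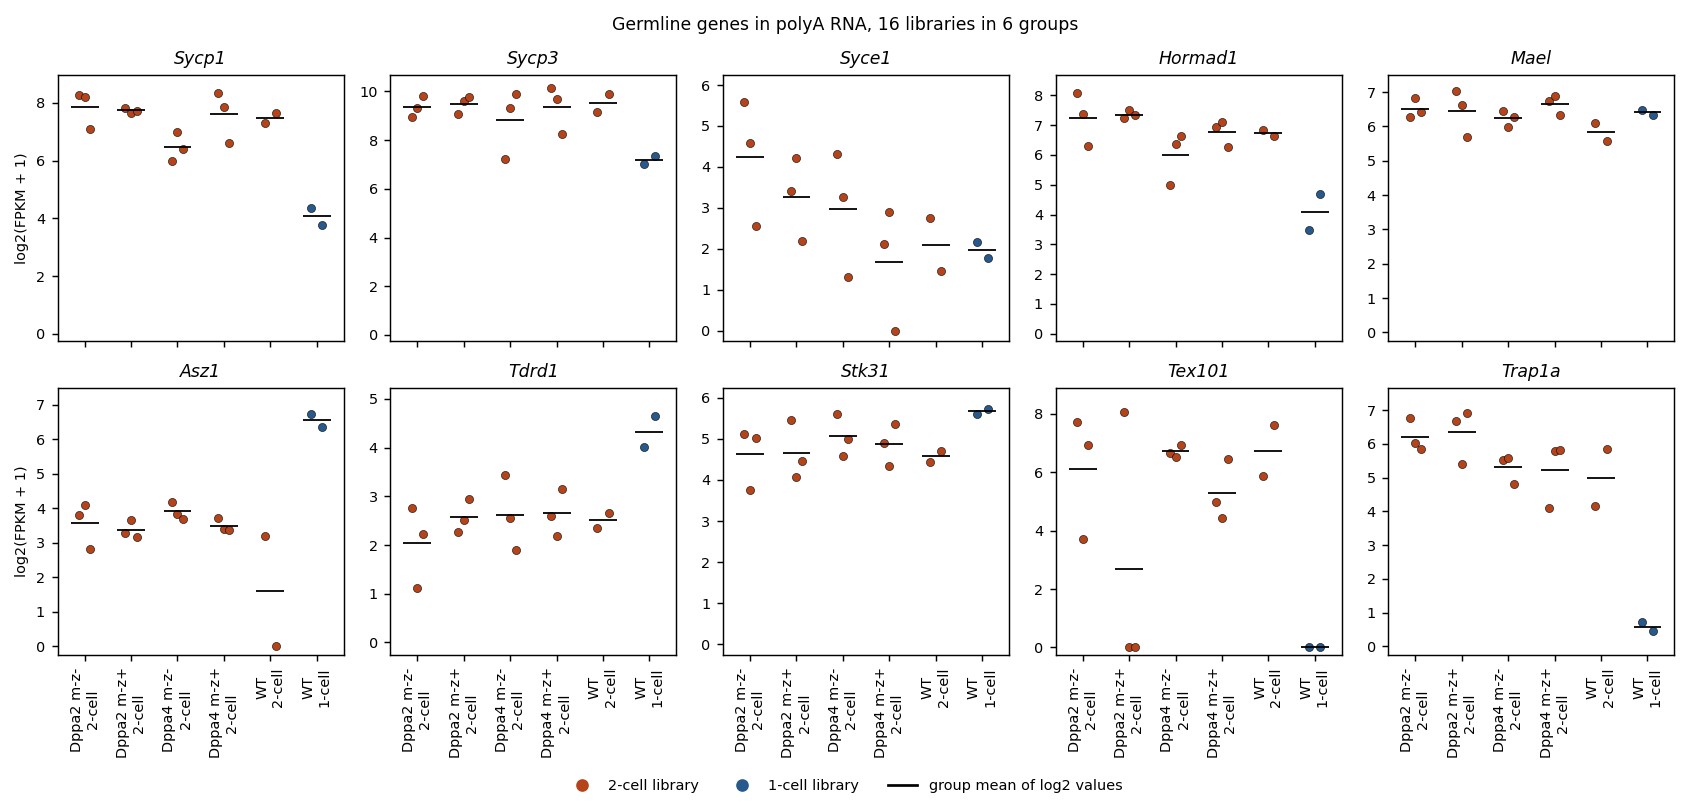
Log2(FPKM + 1) of each member in the 16 polyA libraries of single embryos (points, 2 or 3 per group; bars are group means of the log2 values). Tex101 is listed at 0 in 2 of 3 Dppa2 m-z+ libraries and in both 1-cell libraries, and the 2-cell groups overlap for most members. The Dppa2 m-z- libraries are named by their label, and Dppa2 itself is not plotted.

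Loss of the maternal supply of DPPA2 or DPPA4 gave no called change in any member. In limma fits over all genes, 0 of 10 members passed at the 1-cell stage and 0 of 10 at the 2-cell stage in the Dppa2 arm, where 0.0398% and 0.186% of all genes passed. In the Dppa4 arm 0 of 10 passed at either stage, where 0.00664% of all genes passed at the 1-cell stage and 0% at the 2-cell stage. At an unadjusted p under 0.05, 3 of these 40 tests passed: Sycp3 in both arms and Stk31 in the Dppa4 arm, each at the 2-cell stage. Of all genes, 3.05% passed that threshold at the 1-cell and 12.8% at the 2-cell stage for Dppa2, and for Dppa4 1.27% at the 1-cell and 2.67% at the 2-cell stage. Sycp3, whose 2-cell FPKM in Dppa2 m-z+ embryos was below that in m+z+ embryos in every library, had the smallest adjusted p of all genotype tests (log2 difference -0.50 ± 0.15, adjusted p = 0.192). For Sycp3 in Dppa4-arm 2-cell embryos the log2 difference was 0.36 ± 0.15 (adjusted p = 1). Stk31 had 4.22 and 5.62 FPKM in Dppa4 m-z+, against 6.96 and 9.93 FPKM in Dppa4 m+z+ 2-cell embryos, a log2 difference of -0.67 ± 0.22 that did not pass (adjusted p = 1). Summed oocyte RNAs lay between 755 and 775 FPKM in Dppa2 m-z+ and between 465 and 549.6 FPKM in Dppa2 m+z+ 2-cell libraries, and 1 of those 6 genes passed as higher; their part in the Sycp3 difference was not tested.

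Counts of members without overlap between m-z+ and m+z+ libraries were read against the same count over all genes. At the 1-cell stage of the Dppa2 arm, 5 of 10 members (Hormad1, Mael, Sycp3, Asz1 and Trap1a) were higher in both m-z+ libraries than in both m+z+ libraries, with log2 differences between 0.15 and 0.41, and 35.4% of all genes did not overlap there. At its 2-cell stage Tdrd1 was higher and Sycp3 and Trap1a were lower in both m-z+ libraries, against 31.4% of all genes without overlap. In the Dppa4 arm Sycp3 was higher at both stages and Stk31 lower at the 2-cell stage, against 32.3% and 22.2% of all genes at the 1-cell and 2-cell stages. The median log2 difference of the members was 0.08 and -0.03 at the 1-cell and 2-cell stages of the Dppa2 arm (0.01 and -0.0028 over all genes tested) and, for Dppa4, 0.04 and 0.0038 (0.0084 and 0.0049). The 95% intervals of the log2 difference were narrowest for Sycp3, Mael and Trap1a, and reached from -0.22 to 0.51 for Mael at the 1-cell and -0.55 to 0.18 at the 2-cell stage of the Dppa2 arm. Among Dppa2-arm 2-cell tests the widest was that of Tex101, from -1.83 to 0.70.

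**Figure D4:**
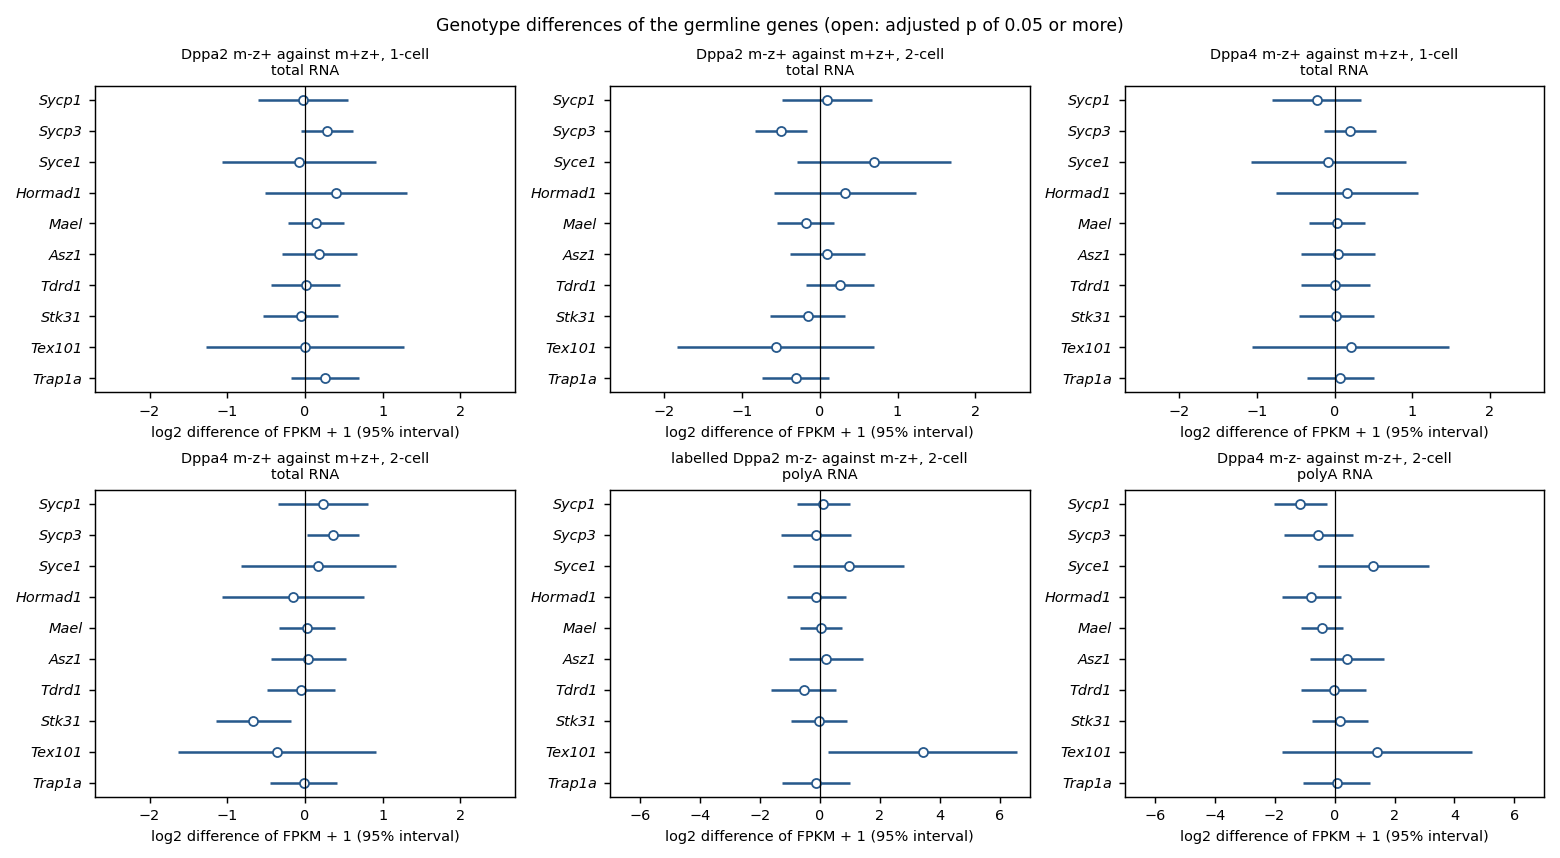
Log2 difference of FPKM + 1 with its 95% interval (horizontal axis; the polyA panels span a wider range) for each member in 6 comparisons by genotype: m-z+ against m+z+ in total RNA by arm and stage (2 libraries per group), and m-z- against m-z+ in 2-cell polyA RNA (3 libraries per group). All symbols are open, since no member passed an adjusted p of 0.05, and the widest intervals belong to Tex101.

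The stage change itself did not differ by maternal genotype at the threshold for any member. The m-z+ stage change minus the m+z+ stage change passed in 0 of 10 members in each arm, while 0% of all genes passed for Dppa2 and 0.00664% for Dppa4. At an unadjusted p under 0.05, 2 of these 20 tests passed, Sycp3 in the Dppa2 arm (-0.78 ± 0.22 on the log2 scale, adjusted p = 0.325) and Stk31 in the Dppa4 arm (-0.69 ± 0.32, adjusted p = 1), beside 8.62% of all genes for Dppa2 and 1.79% for Dppa4.

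Loss of the embryo's own copy in addition to the maternal supply was tested in 2-cell polyA RNA. No member passed between libraries labelled Dppa2 m-z- and Dppa2 m-z+ libraries, where 0.0054% of all genes passed, or between Dppa4 m-z- and Dppa4 m-z+ libraries, where 0.0162% did. At an unadjusted p under 0.05, 2 of these 20 tests passed, 1 in each arm, beside 7.65% of all genes for Dppa2 and 7% for Dppa4. One was Sycp1, with 62.4, 127.9 and 82.9 FPKM in Dppa4 m-z-, against 327, 229 and 96.0 FPKM in Dppa4 m-z+ embryos (log2 difference -1.14 ± 0.42, adjusted p = 0.643), groups that overlap. Summed oocyte RNAs lay between 3200.25 and 5135 FPKM in Dppa4 m-z- and between 2595 and 3136 FPKM in Dppa4 m-z+ embryos, and their part was not tested. The other was Tex101, with 209, 12.3 and 120.4 FPKM in libraries labelled Dppa2 m-z- and 269, 0 and 0 FPKM in Dppa2 m-z+ libraries (log2 difference 3.43 ± 1.498, adjusted p = 0.616). Without Dppa2 m-z+ replicate 1 the Tex101 difference passed, against 2 libraries that list the gene at 0 (adjusted p = 0.0115). In the Dppa4 arm Tex101 had 100.7, 90.9 and 122 FPKM in m-z-, against 30.5, 20.8 and 87.4 FPKM in m-z+ embryos, the only member without overlap there (log2 difference 1.42 ± 1.498, adjusted p = 0.887), while 9.83% of all genes did not overlap. In the Dppa2 arm 0 of 10 members were without overlap, against 10.4% of all genes.

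Hormad1, Trap1a and Syce1 showed the spread between libraries of single embryos, in which differences between embryos and technical differences cannot be told apart. Hormad1 had 268, 165 and 77.6 FPKM in libraries labelled Dppa2 m-z- and 150.3, 180.4 and 159.9 FPKM in Dppa2 m-z+ libraries, and 30.7, 80.9 and 98.3 FPKM in Dppa4 m-z-, against 120.4, 136 and 76.6 FPKM in Dppa4 m-z+ embryos. Its groups overlapped in both arms, with log2 differences of -0.11 ± 0.47 and -0.77 ± 0.47. Trap1a had 45.3, 46.7 and 26.9 FPKM in Dppa4 m-z-, against 16.1, 54.3 and 56.1 FPKM in Dppa4 m-z+ embryos, a log2 difference of 0.07 ± 0.53. Syce1, low in total RNA, reached 46.7, 22.9 and 4.86 FPKM in libraries labelled Dppa2 m-z-, against 9.64, 17.5 and 3.60 FPKM in Dppa2 m-z+ libraries (log2 difference 0.96 ± 0.88, adjusted p = 0.808). Summed cumulus and granulosa markers were 42.8 to 49.8 FPKM in libraries labelled Dppa2 m-z- and 19.0 to 28.0 FPKM in Dppa2 m-z+ libraries, and their part was not tested. The 95% interval for Sycp3 in the Dppa4 arm ran from -1.70 to 0.61.

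Against WT, 0 of 10 members passed in each mutant group, where 0.113% of all genes passed for Dppa2 m-z+, 0.0973% for the libraries labelled Dppa2 m-z-, 0% for Dppa4 m-z+ and 0.0648% for Dppa4 m-z-. These 4 comparisons share the same 2 WT libraries, and in the Dppa2 arm genotype and strain background cannot be told apart. At an unadjusted p under 0.05, 9 of the 40 tests passed. Over all genes the share was 7.75% for Dppa2 m-z+, 6.21% for the libraries labelled Dppa2 m-z-, 6.65% for Dppa4 m-z+ and 10.7% for Dppa4 m-z-. The count of 9 pools 4 comparisons that are not independent, so no difference from these shares is read from it. Asz1, at 8.19 and 0 FPKM in the WT 2-cell libraries, was among the 9 tests in all 4 comparisons, with 17.3, 13.3 and 11.9 FPKM in Dppa4 m-z- embryos (log2 difference 2.31 ± 0.66, adjusted p = 0.257). Without WT 2-cell replicate 1, which left the library listing Asz1 at 0, this difference passed (adjusted p = 0.018). Tex101 had a log2 difference of -4.04 ± 1.68 between Dppa2 m-z+ and WT embryos that did not pass (adjusted p = 0.57), and it passed without Dppa2 m-z+ replicate 1 (adjusted p = 0.0122).

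Control 2-cell embryos of the arms differed in 3 members. The arms differ in strain background and in mutant line, whose parts cannot be told apart. At the 2-cell stage Sycp1 had 83.9 and 77.5 FPKM in Dppa2-arm m+z+ and 41.2 and 29.3 FPKM in Dppa4-arm m+z+ embryos (log2 difference 1.19 ± 0.27, adjusted p = 0.0196). Sycp3 had 115 and 104 FPKM in Dppa2-arm and 58.3 and 61.9 FPKM in Dppa4-arm m+z+ embryos (0.85 ± 0.15, adjusted p = 0.00801). Tdrd1 had 16.3 and 16.03 FPKM in Dppa2-arm and 32.3 and 55.2 FPKM in Dppa4-arm m+z+ embryos (-1.33 ± 0.20, adjusted p = 0.00361). So 2 members were higher and 1 was lower in the Dppa2-arm controls, against 4.5% and 4.63% of all genes. None of the 3 passed when those 4 libraries were fitted alone (adjusted p from 0.319 to 0.324), and without Dppa4 m+z+ 2-cell replicate 2 only Tdrd1 passed (adjusted p = 0.182 for Sycp1 and 0.0525 for Sycp3). Sycp1 also missed the threshold without Dppa2 m+z+ 2-cell replicate 1 (0.0711) and with no filter on low values (0.0504).

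Markers of the egg moved with the same comparison. The summed FPKM of 6 oocyte genes was 465 and 549.6 in Dppa2-arm and 852 and 1189.9 in Dppa4-arm m+z+ 2-cell libraries, 5 of the 6 passing as lower, and their part in the difference of the members was not tested. At the 1-cell stage 0 of 10 members passed between the arms, against 1.01% of all genes. Hormad1 had 0.827 and 0.396 FPKM in Dppa2-arm and 5.56 and 3.01 FPKM in Dppa4-arm m+z+ 1-cell embryos (log2 difference -1.68 ± 0.42, adjusted p = 0.103), and it passed with a pseudocount of 0.1 (0.0325) or with TPM scaling, which gives every library the same total (0.028).

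More of the other piRNA genes fell than rose between the stages in total RNA, as Asz1 and Tdrd1 did. Among all genes tested, by comparison, 28.4% fell while 28.8% rose in Dppa2 m-z+ embryos. Whether the list differs from such shares was not tested. Of 14 tested piRNA and nuage genes, out of 17 listed, 2 rose and 9 fell in Dppa2 m-z+, Dppa4 m-z+ and Dppa4 m+z+ total RNA, and 4 rose and 7 fell in Dppa2 m+z+. Tdrd12, a Tudor-domain helicase of secondary piRNA production, fell most in each, to 1.98 ± 0.31 FPKM (SD, n = 2) in Dppa2 m-z+ 2-cell embryos, against 77.6 ± 3.54 at the 1-cell stage (log2 change -4.73 ± 0.36, adjusted p = 4.01e-07). In WT polyA RNA 2 rose (Mov10l1, a piRNA helicase, and Piwil2, a PIWI protein) and 2 fell, Tdrd12 again by -3.85 ± 0.53 (adjusted p = 3.56e-05). The median log2 change of the tested genes of this list was -0.89, -0.64, -1.25 and -1.08 in Dppa2 m-z+, Dppa2 m+z+, Dppa4 m-z+ and Dppa4 m+z+ total RNA, beside 0.02, 0.06, 0.03 and 0.04 over all genes, and -0.01 beside 0.23 in WT polyA RNA.

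Fewer of the other meiotic genes rose than fell in total RNA, while Sycp1, Sycp3 and Hormad1 rose. Counts of this list and of the other germline genes were not tested against the shares of all genes. Those shares were 28.8% rising beside 28.4% falling in Dppa2 m-z+ embryos, while WT polyA RNA had 17.4% beside 8.42%. No difference of either list from all genes is read from the counts. Of 15 tested in total RNA, out of 23 listed, 2 rose and 5 fell in Dppa2 m-z+, 3 and 6 in Dppa2 m+z+, 2 and 5 in Dppa4 m-z+ and 2 and 4 in Dppa4 m+z+ embryos, and 3 of 20 rose and 0 fell in WT polyA RNA. Msh4, a meiotic crossover protein, fell in each total RNA comparison (log2 change -2.39 ± 0.26 in Dppa2 m-z+ embryos, adjusted p = 6.28e-06), and Tex11, a further crossover factor, rose in Dppa4 m-z+ embryos to 15.2 ± 2.36 FPKM, against 5.91 ± 0.30 at the 1-cell stage (adjusted p = 0.000355). Of 13 other germline genes tested in total RNA, out of 16 listed, 5 rose and 6 fell in Dppa2 m-z+, 6 and 5 in Dppa2 m+z+, 6 and 5 in Dppa4 m-z+ and 5 and 5 in Dppa4 m+z+ embryos. Rpl10l, a testis ribosomal protein gene, rose in all of them, with 88.7 ± 20.1 FPKM in Dppa2 m-z+ 2-cell embryos, against 1.41 ± 0.0091 at the 1-cell stage (log2 change 5.20 ± 0.47, adjusted p = 1.56e-06). In WT polyA RNA 3 of 14 tested rose and 2 fell. Among them Rpl10l rose by 6.61 ± 0.40 (adjusted p = 2.68e-09) and Tuba3b, a testis tubulin gene, by 3.63 ± 0.97 (0.0103) on the log2 scale. Dazl, an RNA-binding protein of germ cells, fell there to 39.4 ± 2.69 FPKM, against 510.4 ± 2.62 at the 1-cell stage (log2 change -3.66 ± 0.38, adjusted p = 1.62e-06).

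Genes of the machinery that methylates and represses germline promoters were counted over the same interval. Of 16 tested, out of 17 listed, 5 rose and 6 fell in Dppa2 m-z+, 6 and 8 in Dppa2 m+z+, 4 and 6 in Dppa4 m-z+ and 4 and 6 in Dppa4 m+z+ total RNA, and 3 and 3 in WT polyA RNA. The rising counts lie near the shares of all genes given above, such as 28.8% in Dppa2 m-z+ embryos, while the falling counts lie above them. In Dppa2 m-z+ 6 of 16 fell beside 28.4% of all genes, and in Dppa2 m+z+ 8 of 16 beside 29.9%. In Dppa4 m-z+ and Dppa4 m+z+ 6 of 16 fell beside 25% and 24.2%, and in WT polyA RNA 3 of 16 beside 8.42%. Whether the list differs from these shares was not tested, and nothing is read from the counts about the list. Dnmt1, the maintenance DNA methyltransferase, fell in all 5: it had 26.2 ± 8.77 FPKM in Dppa2 m-z+ 2-cell embryos, against 217 ± 16.3 at the 1-cell stage (log2 change -3.04 ± 0.22, adjusted p = 2.35e-07), and 4.52 ± 1.89 against 127 ± 28.8 FPKM in WT polyA RNA (-4.56 ± 0.69, adjusted p = 8.6e-05). Uhrf1, which recruits DNMT1 to newly replicated DNA, had 29.9 ± 8.94 FPKM in Dppa2 m-z+ 2-cell embryos, against 219 ± 23.0 at the 1-cell stage (adjusted p = 3.25e-06). Cbx3, a heterochromatin protein, rose in the same embryos to 49.3 ± 6.38 FPKM, against 1.31 ± 0.24 (log2 change 4.44 ± 0.30, adjusted p = 1.76e-07). In none of the 4 lists did a gene pass in any genotype or stage-by-genotype comparison.

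Genes with the most similar course were found by the root mean square difference of centred group means of log2(FPKM + 1), over 8 groups in total RNA and 6 in polyA RNA. For Tdrd1 the nearest was Gckr in both tables (0.0997 in total RNA and 0.0848 in polyA RNA). In total RNA the nearest were Esf1 for Trap1a (0.0976), Pex14 for Asz1 (0.079), Cyhr1 for Mael (0.0687), Anxa6 for Stk31 (0.0924), Nefl for Tex101 (0.13), Rpsa-ps10 for Sycp1 (0.14), Tor1aip2 for Sycp3 (0.155) and Rrs1 for Hormad1 (0.241). No member was among the 2 nearest genes of another member in either table.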

How the data were processed

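The deposited values are FPKM per gene, made by the authors for 16 total RNA libraries (a stranded kit) and 16 polyA libraries (no strand information). HISAT2 2.1.0, StringTie 1.3.3b and mm10 are named in the submitters' processing notes; no source used here gives the annotation or the strand setting of the counting. Read depth is unknown, so no counting intervals are given; summed FPKM was 412115 to 629583 in total and 539978 to 675241 in polyA libraries.

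Groups came from the sample labels. Each table was fitted separately with limma 3.58.1 (R 4.3.3, trend and robust options) on log2(FPKM + 1), all groups together, after a filter of at least 1 FPKM in at least 2 libraries, with two-sided tests and Benjamini-Hochberg adjustment over all genes (threshold 0.05). Errors beside log2 values are standard errors. GENCODE M21 gave positions and names. Alternatives were a pseudocount of 0.1, no filter, a filter of 5 FPKM, TPM and median-ratio scaling, only the compared groups, a replicate block, and leaving out each library. Replicate numbers were checked for pairing. All 10 members were named; of the other gene lists, up to 3 called genes with the largest change per comparison could be named, and for similar courses the 2 nearest genes. Members and lists were chosen with earlier results of these data known. Fits were tested on simulated data.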

Additional observations from a re-analysis of the deposited data

How the results depend on the processing

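Over all 19 comparisons 43 of 190 member tests passed. Leaving out 1 library gave 172 values for these, of which 156 stayed past the threshold, 16 did not and 0 changed direction; the other settings gave 301 values, of which 291 stayed past it and 10 did not. Between control arms, 1 member instead of 0 passed at the 1-cell stage with a pseudocount of 0.1 and 1 with TPM scaling, while 0 instead of 3 passed at the 2-cell stage when only the compared groups were fitted, and 1 to 3 without 1 library. In WT polyA RNA 4 members instead of 7 passed with no filter on low values, and 3 to 6 without 1 library. Leaving out 1 library gave 0 to 1 instead of 0 for libraries labelled Dppa2 m-z- against Dppa2 m-z+, for Dppa2 m-z+ against WT and for Dppa4 m-z- against WT. The causes were not tested.

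The replicate numbers gave no sign of pairing (correlations of deviations for total RNA from -0.14 to 0.14, for polyA RNA from -0.18 to 0.12). With a replicate block, Tdrd1 in WT polyA RNA missed the threshold (adjusted p = 0.0535) and Syce1 in Dppa2 m+z+ embryos passed (0.0402). TPM scaling gave 3146 genes rising and 5019 falling in Dppa4 m-z+ embryos and 3087 and 4834 in Dppa4 m+z+ embryos, and median-ratio scaling gave 2805 and 2355 in WT polyA RNA. The members' called stage changes all held under both scalings. With 2 or 3 libraries per group, wide intervals, above all for Tex101 and Syce1, limit what the genotype comparisons can show.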
